A study of Mus musculus with 14 samples.

Results

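The genes described here are 10 transcripts of mouse heart that mark mechanical load and the fetal programme of cardiac muscle: the natriuretic peptides Nppa and Nppb, the peptide-processing protease Corin, the receptors Npr1, Npr2 and Npr3, the sarcomere genes Myh7 and Acta1, and the stress regulators Ankrd1 and Rcan1. They were taken by symbol, matched to Ensembl identifiers in GENCODE M21, from a table of 55487 genes, and all 10 were among the 15528 genes with enough reads to be tested. Total RNA, labelled as from whole hearts of untreated male C57BL/6 mice, was sequenced after ribosomal RNA removal. Knockout hearts (Myh6-Cre-Sqstm1fl/fl) carried a floxed Sqstm1 gene, which encodes the autophagy receptor p62, and expressed Cre from the Myh6 promoter, whose activity is that of heart muscle, so other cell types in the organ keep p62. The groups were knockout at 15 months (n = 4), wild type at 15 months (n = 4), knockout at 2 months (n = 3) and wild type at 2 months (n = 3). The labels call the controls wildtype and do not say whether they carried Cre or floxed alleles, and they do not say which hearts shared a litter or a batch, so the p-values reflect only how these 14 samples vary, which may be technical.

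Natriuretic peptides are hormones that heart muscle releases when it is stretched. Corin cuts the precursor of the atrial peptide to its active form, Npr1 and Npr2 are receptors that make cyclic GMP, and Npr3 removes the peptides from the circulation. Nppa, Nppb, Myh7 and Acta1 are abundant in the fetal ventricle, fall after birth and return in many forms of cardiac overload, and Ankrd1 and Rcan1 respond to stretch and to calcineurin.

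The 14 libraries held between 20218992 and 30404416 counts, of which mitochondrially encoded genes took 27.5% to 46.0%. Sqstm1 was between 14.6 and 37.0 CPM (counts scaled to the library total) in the 7 knockout hearts and between 139 and 238 CPM in the 7 wild-type hearts. The tissue label was checked against 5 atrial markers. The atrial myosin light chain Myl7 reached 638 CPM in wild-type replicate 1 at 2 months, and at 15 months 58.1 CPM in knockout replicate 1 and 39.7, 15.0 and 26.9 CPM in wild-type replicates 1, 2 and 4. It was below 1 CPM in the other 9 libraries, of which 5 had no read of the atrial gene Sln. The summed level of all 5 atrial markers was 92.2 to 231 CPM in knockout hearts and 110.001 to 274 CPM in wild type at 15 months, and 83.5 to 94.0 CPM in knockout hearts and 82.5 to 1429 CPM in wild type at 2 months. In the 9 libraries with Myl7 below 1 CPM nearly all of that sum was Kcnj3, at 81.6 to 130.6 CPM, and the other 4 atrial markers came to 0.889 to 2.50 CPM together. In these 9 libraries the label of whole hearts was therefore not borne out by those 4 markers, and the libraries differ in atrial content. The clock repressor Ciart split the hearts of 2 months: it reached 16.3 CPM in knockout replicate 3 and 20.2 CPM in wild-type replicate 3 but at most 1.20 CPM in the remaining 4, and was 7.07 to 13.6 CPM in all hearts of 15 months. Libraries also differed in how a gene's level depended on its exon length. The length slope, fitted within each library to log2 CPM against log2 exon length after the average of each gene over the 14 libraries was subtracted, was −0.092 to 0.235 in knockout and −0.074 to 0.117 in wild type at 15 months, and −0.136 to −0.043 in knockout and −0.177 to −0.011 in wild type at 2 months.

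Between genotypes none of the 10 genes passed the test, at either age or for the mean of both ages. Each difference was fitted across all 15528 genes in edgeR (quasi-likelihood test), and p-values were adjusted by Benjamini-Hochberg at a threshold of 0.05, with all log2 fold changes given as knockout over wild type or 15 over 2 months. At 15 months 0 of 10 genes passed by edgeR, DESeq2 or limma voom, against 0.00644% of all genes by edgeR, and 1, Acta1, was at an unadjusted p below 0.05, against 3.97% of all genes. At 2 months 0 of 10 passed by all 3 tools, against 0.00644% of all genes, and 0 had an unadjusted p below 0.05, against 3.18%. The counts for the mean of both ages were 0 by all 3 tools, against 0.00644%, and 1, again Acta1, at an unadjusted p below 0.05, against 3.26%. For the difference of the knockout effects between ages they were 0 by all 3 tools, against 0% of all genes by edgeR, and 1, Ankrd1, at an unadjusted p below 0.05, against 3.72%.

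Between 15 and 2 months, Nppa, Nppb and Acta1 were lower and Npr1, Npr3 and Myh7 higher in every knockout heart of 15 months than in every knockout heart of 2 months. These were 6 of 10 genes without overlap, against 20.1% of all genes. None passed within the knockout (0 of 10 by edgeR, against 2.25% of all genes; 0 by limma voom, against 3.11%; 3 by DESeq2, namely Nppa, Npr3 and Acta1, against 10.5%), and 6 were at an unadjusted p below 0.05, against 26.7%. In wild type 2 of 10 genes did not overlap between ages, Npr2 and Ankrd1, both above, against 16.2% of all genes. None passed there (0 by edgeR, against 1.04% of all genes; 0 by limma voom, against 0.985%; 1 by DESeq2, Npr3, against 7.1%), and 4 were at an unadjusted p below 0.05, against 23.8%. Both age comparisons use the same estimate of spread but no common library.

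A contrast of 15 with 2 months averaged over both genotypes was chosen after seeing the data. In it 7 of 10 genes passed, against 23.9% of all genes. Nppa, Nppb and Acta1 fell, 3 of 10 against 13.1% of all genes, and Npr1, Npr2, Npr3 and Myh7 rose, 4 of 10 against 10.8%. Corin, Ankrd1 and Rcan1 did not pass. The median log2 fold change of the 10 genes was 0.26, beside 0.000593 over all 15528 genes. No gene of the 10 was free of overlap between all 8 hearts of 15 months and all 6 hearts of 2 months, against 3.26% of all genes. The number of the 10 past the threshold was 6 by limma voom (24.4% of all genes) and 7 by DESeq2 (29.1% of all genes). Without a filter on low counts it was 1, beside 2783 of 30180 genes, and with the atrial score as a covariate 4, beside 2493 genes. With the length slope as a covariate the number was 0, where 214 of all genes passed in place of 3712. Without the 2 hearts of 2 months with high Ciart it was 1, Npr3, with 869 of all genes, and with only those 2 hearts of 2 months, 1 in each genotype and assumed to vary like the other groups, it was 0, with 392 of all genes. The part of this split in the differences between ages was not tested beyond these fits.

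**Figure D1:**
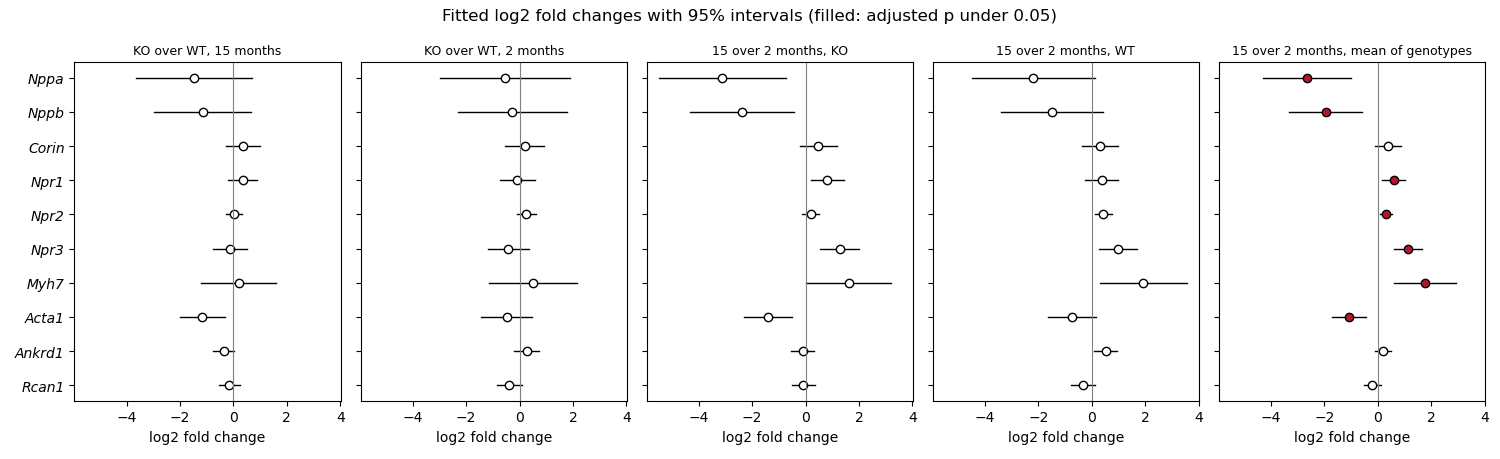
Log2 fold changes of the 10 genes with 95% confidence intervals (x axis, log2 units) in 5 comparisons, from the edgeR quasi-likelihood fit of all 14 libraries; filled points have an adjusted p below 0.05. None of the points in the 4 comparisons on the left is filled, and 7 of 10 points are filled in the average of both genotypes on the right, 3 of them left of 0.

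Promoter sequence is shown for the 3 genes that were lower at 15 months in that average, Nppa, Nppb and Acta1, to set their start regions side by side. The stretches are the 130 bases before the RefSeq start of each gene in GRCm38.p6, read 5′ to 3′ on the strand of the gene: Nppa at chr4:148000592-148000721 (plus strand), Nppb at chr4:147985770-147985899 (plus strand) and Acta1 at chr8:123894776-123894905 (minus strand). Capitals mark the TATA box TATAAA, sites for GATA factors (AGATAA and its form TGATAA, and with another last letter AGATAG and its form TGATAG), the M-CAT site CATTCC, bound by TEAD factors, and the CArG box, bound by serum response factor, all searched on both strands.
Nppa: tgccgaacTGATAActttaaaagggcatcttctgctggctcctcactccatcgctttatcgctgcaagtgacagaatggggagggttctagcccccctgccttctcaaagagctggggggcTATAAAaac
Nppb: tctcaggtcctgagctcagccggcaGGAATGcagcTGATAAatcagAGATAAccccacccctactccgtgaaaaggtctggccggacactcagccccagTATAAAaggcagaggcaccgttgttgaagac
Acta1: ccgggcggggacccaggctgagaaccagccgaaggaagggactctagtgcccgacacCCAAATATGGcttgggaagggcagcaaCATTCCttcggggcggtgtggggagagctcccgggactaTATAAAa
All 3 stretches held the letters TATAAA, which 6.83% of 32851 RefSeq promoter windows of the same length held. The letters began 9 bases before the RefSeq start in Nppa, 31 in Nppb and 7 in Acta1. The start of Nppb in GENCODE M21, at 147985788, lies inside its stretch. A GATA site was found in Nppa, 122 bases before the start, and in Nppb at 95 and 84 bases, against 13.9% of all windows. An M-CAT site was found in Nppb (on the minus strand, as GGAATG, 105 bases before the start) and in Acta1 (46 bases before it), against 6.41%, and a CArG box in Acta1 alone of the 3, 73 bases before the start, against 0.81%. In windows of 250 bases, Ankrd1 held 1 GATA and 2 M-CAT sites and Myh7 1 M-CAT site in 1 of its 2 windows, against 26.5% of all windows of that length with a GATA site and 12.6% with an M-CAT site, and Corin, Npr1, Npr2, Npr3 and Rcan1 held none of these letters. A match describes the letters and no binding was measured.

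The 10 genes covered a wide range of levels. Per exon length, the mean over the 14 hearts was 186 CPM per kilobase of exon (RPKM) for Nppb, 139.7 for Ankrd1, 134 for Acta1, 100.3 for Nppa, 36.1 for Myh7, 35.4 for Corin, 15.3 for Rcan1, 7.35 for Npr2, 3.23 for Npr3 and 2.07 for Npr1. The first 4 cannot be ranked, because Nppb ran from 8.36 to 550 RPKM, Acta1 from 41.0 to 357 RPKM and Nppa from 0.751 to 423 RPKM over the hearts, whereas Ankrd1 stayed between 92.1 and 194.7 RPKM. Npr3 and Npr1 also overlapped, at 1.35 to 6.38 and 1.39 to 4.25 RPKM. The ratio of the highest to the lowest heart was 563 for Nppa, 65.8 for Nppb and 34.3 for Myh7, and between 2.04 and 8.71 for the other 7 genes.

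**Figure D2:**
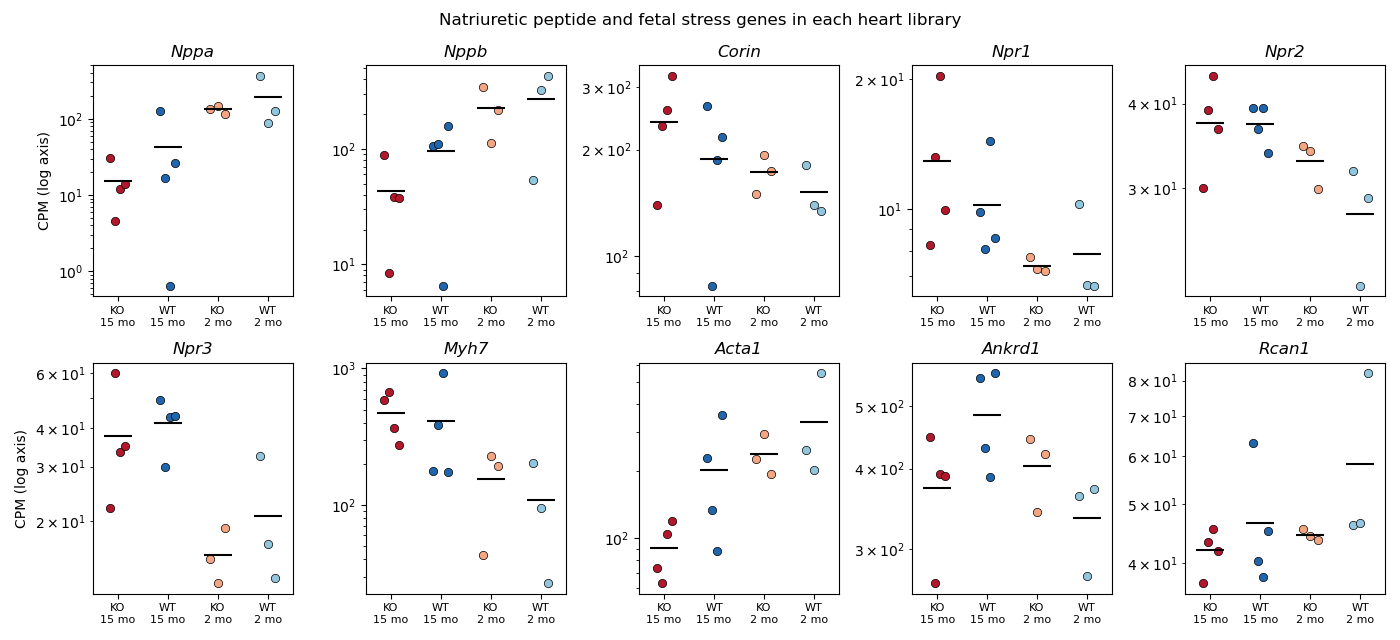
Level of each of the 10 genes (y axis, CPM on a log scale) in every heart, in the 4 groups by genotype and age; points are hearts and bars are group means. In the panel of Nppa, wild-type hearts of 15 months run from 0.650 to 127 CPM, and in that of Rcan1 most hearts lie close together.

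Nppa (chromosome 4, 148000722 to 148002079 in GRCm38, plus strand), which encodes atrial natriuretic peptide, was at 30.96, 4.59, 11.9 and 14.1 CPM in the 4 knockout hearts of 15 months, against 127, 17.01, 0.650 and 26.5 CPM in the wild-type hearts of that age. Hearts of 2 months held 136, 146 and 116 CPM in knockout hearts and 366, 89.4 and 128 CPM in wild-type hearts. The knockout hearts lay inside the wild-type range at both ages, and the lowest heart of all was wild-type replicate 3 at 15 months, with 20 reads. Of the exonic bases of Nppa 61.5% lie opposite the antisense gene Gm13054, which had 1 to 10 reads in a library, while Nppa had 20 to 9440. Group means were 15.4 ± 11.2 CPM in knockout hearts and 42.8 ± 57.1 CPM in wild type at 15 months (SD, n = 4 each), and 133 ± 15.2 CPM and 194 ± 149.9 CPM at 2 months (SD, n = 3 each). Nppa did not pass between genotypes at 15 months, with a log2 fold change of −1.49 (SE 1.002) and a 95% confidence interval of −3.66 to 0.69 (edgeR quasi-likelihood test, Benjamini-Hochberg adjusted p = 0.999). The log2 fold change at 2 months came to −0.55 (SE 1.12), with an interval of −2.98 to 1.88. Both signs rested on single wild-type hearts: without wild-type replicate 1 the value was 0.056 at 15 months, and without wild-type replicate 1 of 2 months it was 0.30 at 2 months. Between ages the log2 fold change was −3.12 (SE 1.09) in knockout (edgeR adjusted p = 0.110) and −2.18 (SE 1.06) in wild type (edgeR adjusted p = 0.230). For the mean of both genotypes it was −2.65 (SE 0.76), past the threshold (edgeR adjusted p = 0.0274). It stayed past the threshold in 18 of 27 other settings, with values of −5.53 to −2.22, and lost the call without any 1 of knockout replicate 3 of 15 months and knockout replicates 1 and 3 and wild-type replicates 1 and 2 of 2 months.

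Nppb (chromosome 4, 147985788 to 147987205, plus strand), next to Nppa and encoding the B-type peptide of the ventricle, was at 87.97, 8.41, 38.05 and 37.4 CPM in knockout hearts of 15 months, against 106, 109.8, 6.53 and 159 CPM in wild-type hearts of that age. In hearts of 2 months the levels were 341, 113 and 218 CPM in knockout hearts and 54.1, 324 and 429 CPM in wild type. Wild-type hearts of both ages held the lowest values of their age, replicate 3 at 15 months and replicate 1 at 2 months, and the genotypes overlapped. The log2 fold change between genotypes was −1.15 (SE 0.84) at 15 months and −0.27 (SE 0.95) at 2 months, neither past the threshold (edgeR adjusted p = 0.999 and 0.9997). The sign at 2 months turned without knockout replicate 2 (0.057), without wild-type replicate 3 (0.26) and by limma voom (0.045). Between 15 and 2 months it was −2.39 (SE 0.91) in knockout and −1.50 (SE 0.89) in wild type, and −1.94 (SE 0.63) for the mean of both (edgeR adjusted p = 0.124, 0.316 and 0.0415). The call for the mean held in 12 of 27 other settings, with values of −4.42 to −0.80. It was lost with the atrial score, with the replicate block and without any 1 of 9 libraries, which were knockout replicates 2, 3 and 4 and wild-type replicates 1 and 2 of 15 months and knockout replicates 1 and 3 and wild-type replicates 2 and 3 of 2 months.

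Over the 14 hearts the log2 levels of Nppa and Nppb correlated at 0.78 (Pearson) and 0.64 (Spearman), and at 0.63 (Pearson) once group means were removed, given as descriptions since the hearts share depth, age and tissue sampling. Nppa was 6.11 times Nppb per exon length in wild-type replicate 1 of 2 months, the heart with the highest Myl7. In the other 13 hearts the ratio was between 0.0898 and 1.17. The order of the peptides differed within the hearts of 2 months, where knockout replicate 2 had more Nppa (146 CPM) and less Nppb (113 CPM) than each of the others except wild-type replicate 1.

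The atrial transcript Myl7 and Nppa ran in the same order in some groups only. Over the 14 hearts the Pearson correlation of their log2 levels was 0.27, and 0.67 with group means removed. Among wild-type hearts of 15 months the order of Nppa, from replicate 1 over 4 and 2 to 3, was the order of Myl7. Knockout replicate 1 of that age, with 58.1 CPM of Myl7, held the highest Nppa and Nppb of its group. Its Nppa, 30.96 CPM, was below the 127 CPM of wild-type replicate 1, which had 39.7 CPM of Myl7. Knockout replicate 4 had less Myl7 (0.042 CPM) but more Nppa (14.1 CPM) than knockout replicate 3 (0.48 and 11.9 CPM). Among hearts of 2 months, wild-type replicate 1 was highest in both. Bmp10, another gene of the atrium, was at 57.6 CPM in wild-type replicate 1 of 15 months, 3.22 CPM in wild-type replicate 1 of 2 months and at most 0.17 CPM elsewhere. In the 9 hearts with Myl7 below 1 CPM, Nppa was 0.650 to 14.1 CPM in the 4 of 15 months and 89.4 to 146 CPM in the 5 of 2 months. In the same hearts Nppb was 6.53 to 38.0 CPM at 15 months and 113 to 429 CPM at 2 months. The ages did not overlap for either peptide in these hearts, which were picked by Myl7. The 4 other hearts of 15 months had 17.0 to 127 CPM of Nppa and 88.0 to 159 CPM of Nppb. The other heart of 2 months had 366 CPM of Nppa and 54.1 CPM of Nppb, inside the Nppb range of 15 months. The share of all genes without overlap in the 9 hearts was not counted. A fit of these 9 hearts keeps 1 wild-type heart of 15 months and assumes that it varies like the other groups. Its log2 fold change of Nppa between ages was −3.70 in knockout, given without a p-value for that reason. The value in wild type, −7.36, rests at 15 months on the heart with 20 reads of Nppa and is given with no test. In that fit the log2 fold change of Nppa between genotypes at 15 months was 3.96 and that of Nppb 2.10, on the other side of 0 from the values with all hearts, against a single wild-type heart. In these bulk libraries, fewer cells of a type and less RNA per cell cannot be told apart.

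**Figure D3:**
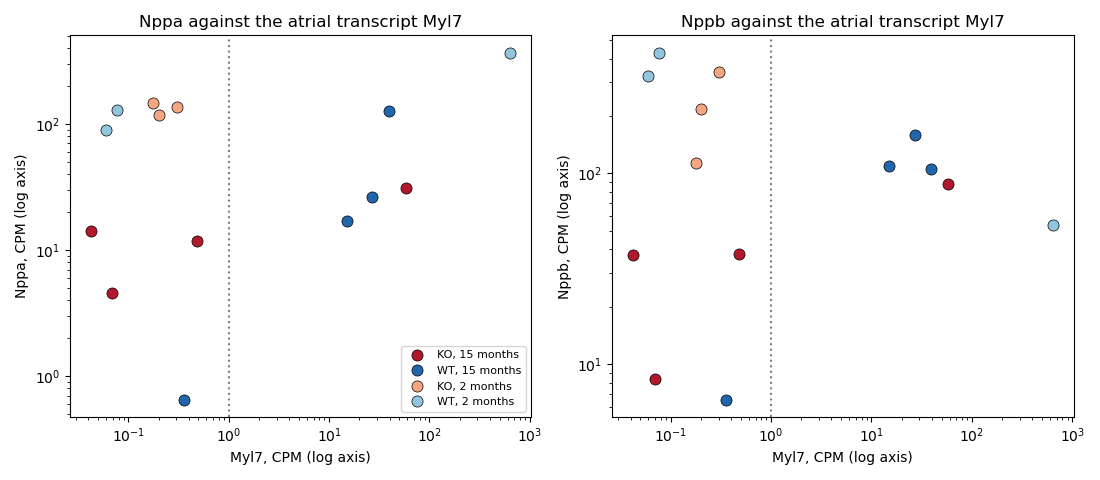
Nppa (left) and Nppb (right) in CPM on log y axes against the atrial transcript Myl7 in CPM on a log x axis, 1 point per heart, coloured by genotype and age; the dotted line marks 1 CPM of Myl7. Left of the line, hearts of 15 months have 0.650 to 14.1 CPM of Nppa and hearts of 2 months 89.4 to 146 CPM.

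Corin (chromosome 5, 72300025 to 72504473, minus strand), the protease that activates atrial natriuretic peptide, was at 139, 233, 259 and 323 CPM in knockout hearts of 15 months, against 265, 82.7, 186 and 217 CPM in wild-type hearts of that age. The values at 2 months were 150.2, 193 and 174 CPM in knockout hearts and 181, 139 and 134 CPM in wild-type hearts. The groups overlapped in each comparison, and the hearts of 15 months spread more widely than those of 2 months. Corin did not pass in any comparison of all 14 hearts: its log2 fold change was 0.35 (SE 0.30) and 0.19 (SE 0.34) between genotypes at 15 and 2 months, and 0.39 (SE 0.23) between ages for the mean of both genotypes (edgeR adjusted p = 0.999, 0.9997 and 0.217). With the length slope as a covariate the value between ages was −0.30.

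Of the 3 receptors, the clearance receptor Npr3 showed the clearest difference between ages. Npr3 (chromosome 15, 11839896 to 11907287, minus strand) was at 22.1, 59.9, 33.4 and 35.04 CPM in knockout hearts and 49.1, 29.8, 43.3 and 43.5 CPM in wild-type hearts of 15 months. Hearts of 2 months had 15.2, 12.6 and 19.04 CPM in knockout hearts and 32.4, 16.8 and 13.1 CPM in wild type. Every knockout heart of 15 months lay above every knockout heart of 2 months, and in wild type only replicate 1 of 2 months reached the values of 15 months. Npr3 rose by a log2 fold change of 1.13 (SE 0.24) for the mean of both genotypes, with an interval of 0.63 to 1.64 (edgeR adjusted p = 0.00801). Within a genotype it was 1.27 (SE 0.34) in knockout and 0.99 (SE 0.33) in wild type, short of the threshold (edgeR adjusted p = 0.0604 and 0.119). In the mean of both genotypes Npr3 passed without any 1 library and in 25 of 27 other settings in all, the exceptions being the length slope as a covariate and the fit with only the high-Ciart hearts of 2 months (log2 fold change 1.32). Between genotypes it was −0.14 (SE 0.30) at 15 months and −0.41 (SE 0.35) at 2 months, with intervals of −0.77 to 0.50 and −1.16 to 0.34.

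Npr1 (chromosome 3, 90450591 to 90465866, minus strand), the guanylyl cyclase receptor of both heart peptides, had the lowest mean RPKM of the 10 genes, with a range that overlapped that of Npr3. It was at 8.25, 13.2, 20.3 and 9.97 CPM in knockout hearts and 9.85, 8.10, 14.4 and 8.59 CPM in wild-type hearts of 15 months, and at 7.73, 7.27 and 7.20 CPM in knockout hearts and 10.3, 6.69 and 6.65 CPM in wild-type hearts of 2 months. Knockout replicate 3 of 15 months was the highest heart, and the genotypes overlapped at both ages. Npr2 (chromosome 4, 43631935 to 43651244, plus strand), the receptor of C-type natriuretic peptide, was at 30.04, 39.1, 43.9 and 36.7 CPM in knockout hearts and 39.3, 36.7, 39.4 and 33.8 CPM in wild-type hearts of 15 months. Its levels were 34.7, 34.00 and 29.96 CPM in knockout hearts and 31.8, 21.6 and 29.1 CPM in wild-type hearts of 2 months. Between ages Npr1 rose by 0.59 (SE 0.20) and Npr2 by 0.31 (SE 0.11) on the log2 scale for the mean of both genotypes (edgeR adjusted p = 0.0459 and 0.0468), both close to the threshold of 0.05 and past it in 10 of 27 other settings each, with values of −0.031 to 1.05 for Npr1 and 0.052 to 0.47 for Npr2. With 1 library left out, both calls held without knockout replicate 1 or wild-type replicate 2 of 15 months or wild-type replicate 1 of 2 months, that of Npr1 also without knockout replicate 4 and that of Npr2 without wild-type replicate 4 of 15 months, and each was lost without any of the other 10. Between genotypes Npr1 was at 0.34 (SE 0.26) and Npr2 at 0.0062 (SE 0.14) at 15 months, and at −0.093 (SE 0.31) and 0.26 (SE 0.16) at 2 months, with no call. The share of Npr3 among the 3 receptors, per exon length, was 26.7% ± 7.05 in knockout and 30.2% ± 4.21 in wild type at 15 months (SD, n = 4 each), and 16.3% ± 3.69 in knockout and 22.1% ± 6.19 in wild type at 2 months (SD, n = 3 each).

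The receptors and Corin, whose exons are long, followed the length slope of the library. Exon length was 4783 bases for Npr1, 4667 for Npr2, 9389 for Npr3 and 5400 for Corin. Myh7 had 8616 bases, Rcan1 3085, Ankrd1 2886, Acta1 1536, Nppa 865 and Nppb 781. Over the 14 hearts the Pearson correlation of log2 level with the length slope was 0.89 for Npr1, 0.82 for Npr2, 0.79 for Npr3 and 0.74 for Corin. It was −0.76 for Nppb, −0.57 for Nppa, 0.56 for Myh7 and −0.44 for Acta1, and between −0.092 and 0.069 for Rcan1 and Ankrd1. These describe 14 libraries in which the slope and age are not independent. With the slope in the model the log2 fold change of Npr3 between ages was 0.53 (SE 0.27), that of Npr1 −0.031 (SE 0.17) and that of Nppa −2.75 (SE 1.14).

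**Figure D4:**
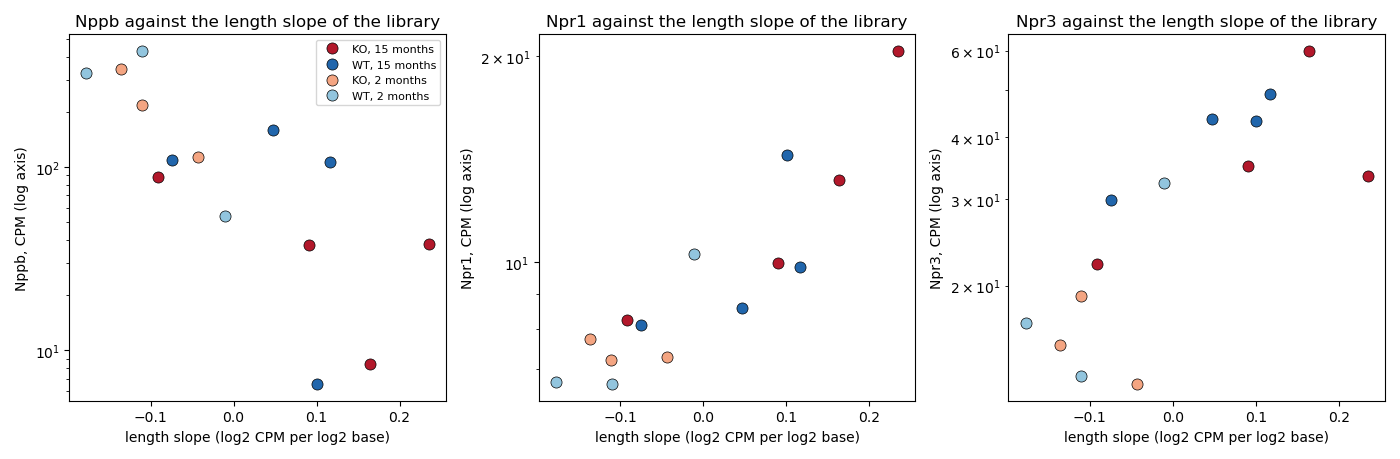
Nppb, Npr1 and Npr3 in CPM (log y axes) against the length slope of each library (x axis, log2 CPM per log2 base), 1 point per heart, coloured by genotype and age. Npr1 and Npr3 are higher and Nppb is lower where the slope is higher, and all hearts of 2 months lie at slopes below 0.

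Myh7 (chromosome 14, 54970684 to 54994626, minus strand), the slow myosin heavy chain of the fetal ventricle, was at 589, 668, 366 and 273 CPM in knockout hearts and 176, 389, 921 and 174 CPM in wild-type hearts of 15 months. Hearts of 2 months held 42.8, 230.0 and 194 CPM in knockout hearts and 203, 95.9 and 26.8 CPM in wild type. Every knockout heart of 15 months exceeded every knockout heart of 2 months, and the wild-type ages overlapped. Myh7 rose by a log2 fold change of 1.77 (SE 0.53) for the mean of both genotypes (edgeR adjusted p = 0.0304). The call held in 14 of 27 other settings, with values of 1.40 to 2.71. It was lost with the replicate block and without any 1 of 8 libraries, which were knockout replicates 1, 2 and 3 and wild-type replicate 3 of 15 months and knockout replicates 1 and 3 and wild-type replicates 2 and 3 of 2 months. Within genotypes it was 1.61 (SE 0.75) in knockout and 1.93 (SE 0.76) in wild type, neither past the threshold (edgeR adjusted p = 0.187 and 0.157). Between genotypes the values were 0.19 (SE 0.66) at 15 months and 0.52 (SE 0.76) at 2 months, with intervals of −1.22 to 1.61 and −1.13 to 2.16. The sign at 15 months turned without any 1 of 3 libraries, wild-type replicates 1 (−0.061) and 4 (−0.052) and knockout replicate 2 (−0.019).

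The adult partner of Myh7, the fast myosin Myh6, was far more abundant and also higher at 15 months. Myh6 was at 14642 ± 3869 CPM in knockout hearts and 15316 ± 3326 CPM in wild type at 15 months (SD, n = 4 each), and at 8777 ± 3446 CPM and 7174 ± 3632 CPM at 2 months (SD, n = 3 each), and rose by 0.92 (SE 0.26) for the mean of both genotypes (edgeR adjusted p = 0.0223). Per exon length Myh7 made up 2.72% ± 1.62 of both myosins in knockout and 2.02% ± 1.42 in wild type at 15 months (SD, n = 4 each), and 1.24% ± 0.490 in knockout and 1.03% ± 0.471 in wild type at 2 months (SD, n = 3 each). Over all hearts the share ran from 0.502% to 4.92%. Of the 50-base words in Myh7 transcripts 15.6% also occur in Myh6, so that reads there could be counted for either gene or dropped, and 5.62% of the exonic bases of Myh7 lie opposite the antisense transcript Mhrt, which had 285 to 754 reads in a library.

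Acta1 (chromosome 8, 123891769 to 123894751, minus strand), skeletal alpha-actin, an actin of the fetal heart, had the lowest unadjusted p of the 10 genes between genotypes at 15 months. Acta1 levels were 73.8, 63.00, 104 and 119.6 CPM in knockout hearts and 230.3, 134, 87.99 and 356 CPM in wild-type hearts of 15 months. The levels at 2 months were 226, 294 and 195 CPM in knockout hearts and 249, 203 and 549 CPM in wild-type hearts. At 15 months 3 of 4 wild-type hearts lay above all knockout hearts, and wild-type replicate 3 lay among them. The log2 fold change between genotypes at 15 months was −1.16 (SE 0.40), with an interval of −2.01 to −0.32, an unadjusted p of 0.0104 by the edgeR quasi-likelihood test and an adjusted p of 0.999. It was −1.21 with the atrial score as a covariate and 0.13 in the 9 hearts with Myl7 below 1 CPM, of which wild-type replicate 3 is the only wild-type heart of that age. At 2 months it was −0.49 (SE 0.45), with 0.089 without wild-type replicate 3, and for the mean of both ages −0.82 (SE 0.30) (edgeR unadjusted p = 0.0152, adjusted p = 0.999). Between ages Acta1 fell by a log2 fold change of −1.06 (SE 0.30) for the mean of both genotypes (edgeR adjusted p = 0.0220), with −1.40 (SE 0.42) in knockout and −0.72 (SE 0.42) in wild type (edgeR adjusted p = 0.0788 and 0.301). The call for the mean held in 21 of 27 other settings, with values of −1.70 to −0.77, and was lost without knockout replicate 1 or wild-type replicate 3 of 2 months.

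The cardiac actin Actc1, the main actin of adult heart muscle, was at 4651 ± 711 CPM in knockout hearts and 5159 ± 685 CPM in wild type at 15 months (SD, n = 4 each), and at 6138 ± 811 CPM and 4903 ± 945 CPM at 2 months (SD, n = 3 each), with no call in any comparison. Acta1 made up 2.05% ± 0.671 of both actins per exon length in knockout and 3.85% ± 1.94 in wild type at 15 months (SD, n = 4 each). At 2 months its share was 3.92% ± 0.500 in knockout and 6.395% ± 2.20 in wild type (SD, n = 3 each). The knockout shares of 15 months, 1.20% to 2.69%, all lay below those of 2 months, 3.34% to 4.22%. Markers of skeletal muscle, which also contains Acta1, were low, with a summed level of 6 genes of 0.512 to 1.63 CPM in knockout hearts and 0.627 to 1.51 CPM in wild type at 15 months, and 1.78 to 5.15 CPM in knockout hearts and 1.85 to 2.87 CPM in wild type at 2 months. Of these 6 genes 2 could be tested, and both passed as lower at 15 months in the mean of both genotypes, against 13.1% of all genes. The myosin Myh4 had no read in any heart, and the part of this list in the level of Acta1 was not tested.

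**Figure D5:**
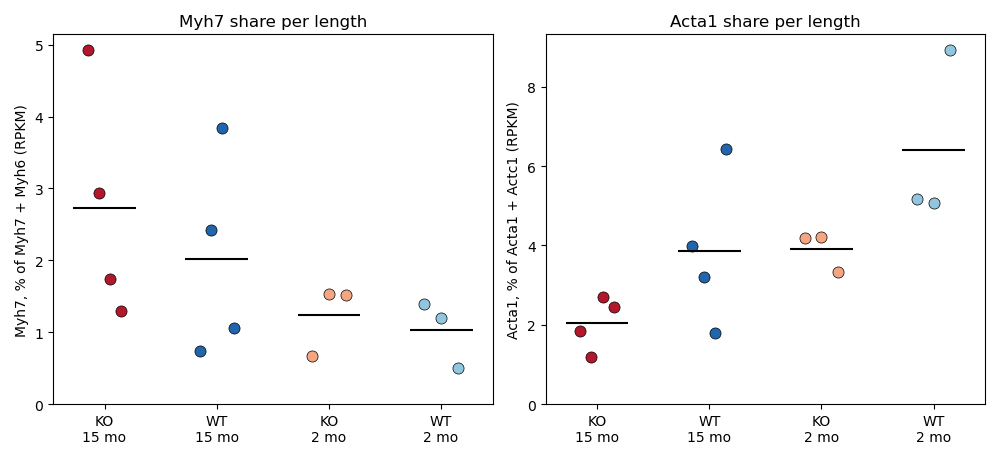
Myh7 as a percentage of Myh7 and Myh6 (left) and Acta1 as a percentage of Acta1 and Actc1 (right), both from RPKM, in every heart by genotype and age; points are hearts and bars are group means. The Myh7 share runs from 0.502% to 4.92%, and the Acta1 share is lower in all 4 knockout hearts of 15 months than in all 3 of 2 months.

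Myh7 and Acta1, both called fetal genes of the sarcomere, did not move together. Over the 14 hearts their Pearson correlation was −0.82, and −0.72 with group means removed. Nppb correlated at −0.83 with Myh7 and at 0.74 with Acta1, and at −0.72 with Myh7 once group means were removed. Wild-type replicate 3 of 15 months, with the lowest Nppa and Nppb of all hearts, had the highest Myh7, and wild-type replicate 3 of 2 months, with the highest Nppb and Acta1, had the lowest Myh7. These values share libraries, and no p is given.

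Ankrd1 (chromosome 19, 36111961 to 36120099, minus strand), a titin-bound repressor induced by stretch, was steady in comparison. It was at 447, 266, 392 and 389.8 CPM in knockout hearts and 553, 431, 388 and 562 CPM in wild-type hearts of 15 months. Its levels at 2 months were 444, 343 and 422 CPM in knockout hearts and 363, 272 and 372 CPM in wild-type hearts. Wild-type hearts of 15 months all lay above those of 2 months, and the knockout ages overlapped. The log2 fold change between ages was −0.11 (SE 0.20) in knockout and 0.53 (SE 0.20) in wild type, neither past the threshold (edgeR adjusted p = 0.747 and 0.146). Between genotypes it was −0.37 (SE 0.18) at 15 months and 0.26 (SE 0.21) at 2 months. The difference of these knockout effects, −0.63 (SE 0.28), had an unadjusted p of 0.0388 and an adjusted p of 0.9999 by the edgeR quasi-likelihood test. At 15 months the 4 hearts with Myl7 of 1 CPM or more, 3 of them wild type, had 431 to 562 CPM of Ankrd1 and the other 4 had 266 to 392 CPM. The share of all genes that separate in this way was not counted. With the atrial score as a covariate the log2 fold change between genotypes at 15 months was −0.27. In the 9 hearts with Myl7 below 1 CPM it was −0.15, against a single wild-type heart of 15 months. The part of atrial content in the level of Ankrd1 was not tested beyond these fits.

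Rcan1 (chromosome 16, 92391953 to 92470867, minus strand), an inhibitor of calcineurin that calcineurin itself induces, was the only gene of the 10 whose genotypes did not overlap at an age. Hearts of 15 months had 37.1, 43.4, 45.5 and 41.9 CPM in knockout hearts and 63.1, 40.4, 37.9 and 45.2 CPM in wild-type hearts. The younger hearts, of 2 months, had 45.5, 44.4 and 43.7 CPM in knockout hearts, all below the 46.2, 46.5 and 82.2 CPM of wild-type hearts, so that 1 of 10 genes did not overlap at this age, against 8.15% of all genes. The log2 fold change at 2 months was −0.39 (SE 0.22), which did not pass (edgeR adjusted p = 0.9997), and at 15 months it was −0.15 (SE 0.19). The gap at 2 months was small, 45.5 CPM in the highest knockout and 46.2 CPM in the lowest wild-type heart, and wild-type replicate 3, at 82.2 CPM, set most of the difference of the means. Between ages Rcan1 gave −0.084 (SE 0.21) in knockout and −0.32 (SE 0.20) in wild type, with no call in either.

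Other genes of the same pathways were counted in 5 lists of 100 genes in all. Between ages, the calls of single list or marker genes were not checked with the length slope as a covariate. For the mean of both genotypes, 214 of all genes passed with that covariate in place of 3712. None of the 92 tested passed between genotypes (0 in edgeR's quasi-likelihood test), with 4 of them at an unadjusted p below 0.05 at 15 months, against 3.97% of all genes, and 2 at 2 months, against 3.18%. In the natriuretic peptide list 17 genes were tested. Mme, the peptidase neprilysin that degrades natriuretic peptides, rose between ages in knockout, with 20.1 ± 3.75 CPM at 15 months (SD, n = 4) and 10.5 ± 2.41 CPM at 2 months (SD, n = 3; log2 fold change 0.94 (SE 0.18), edgeR adjusted p = 0.0196), and was at 0.43 (SE 0.18) in wild type without a call. For the mean of both genotypes 4 of the 17 rose, against 10.8% of all genes, namely Mme, the cyclic GMP-dependent kinase Prkg1 (0.74), the phosphodiesterase Pde3a (0.44) and the cyclic nucleotide exporter Abcc4 (0.73). Of the 17, 1 passed as lower, the peptide-degrading enzyme Ide (−0.64), against 13.1% of all genes. The convertase Furin was at −0.076 (SE 0.12) and did not pass, and Nppc, the ligand of Npr2, had too few reads to be tested.

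In the calcineurin and NFAT list Myoz2, the Z-disc protein calsarcin-1 that holds calcineurin back, fell between ages in both genotypes, by −1.17 (SE 0.24) in knockout and −1.12 (SE 0.24) in wild type (edgeR adjusted p = 0.0274 and 0.0432). For the mean of both genotypes 5 of 20 rose, against 10.8% of all genes, the calcineurin subunit Ppp3ca (0.40), the transcription factors Mef2c (0.44) and Mef2d (0.37), Cabin1 (0.38) and the kinase Gsk3b (0.50). Only Myoz2 passed as lower, 1 of 20 against 13.1% of all genes. Ppp3cb was at 0.15 (SE 0.078) and Rcan2, the relative of Rcan1, at 0.17 (SE 0.10), neither past the threshold. In the list of sarcomere isoforms 2 of 15 rose for the mean of both genotypes, against 10.8% of all genes, Myh6 and the giant spring protein titin, Ttn (1.18), and 4 fell, against 13.1%, the smooth muscle actin Acta2 (−1.14), the slow troponin Tnnt1 (−0.84) and the light chains Myl3 (−0.64) and Myl6 (−0.66). Acta2 also fell within the knockout, by −1.31 (SE 0.29) (edgeR adjusted p = 0.0372). Tnni1, the slow fetal troponin, had too few reads to be tested.

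Among 17 transcription factors of these genes, 2 rose between ages for the mean of both genotypes, a share near the 10.8% of all genes, Tead1 (0.43), which binds M-CAT sites, and the repressor Rest (0.44). In the same list 0 passed as lower, against 13.1% of all genes. Gata4, a cardiac GATA factor, was at 0.23 (SE 0.13) and did not pass. Of 23 other load and stress genes 3 rose, against 10.8% of all genes, Xirp2 (0.40), Fhl1 (0.90) and Tgfb2 (0.98), and 4 fell, against 13.1%, the muscle LIM protein Csrp3 (−0.67), Fhl2 (−0.64), the growth factor Ccn2 (−0.85) and angiotensinogen, Agt (−1.63). Fhl1 also rose within the knockout, by 1.03 (SE 0.22) (edgeR adjusted p = 0.0332). Ankrd23, a relative of Ankrd1, was at −0.043 (SE 0.20). The medians of the 5 lists in this average lay between −0.16 and 0.25, beside 0.000593 over all genes.

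Genes whose levels ran most like those of a member were taken as the 3 with the highest Pearson correlation of log2 CPM over the 14 hearts among 11713 candidates. For Nppa they were Nat14, Dr1 and Grk4, with correlations of 0.87, 0.84 and 0.84, and for Nppb they were Tmem70 (0.94), Gngt2 (0.93) and Med10 (0.93). For Npr3 they were H19 (0.93), Ppl (0.93) and Vwf (0.93), for Npr1 Sntb2 (0.97), Kirrel (0.96) and Clip3 (0.95), for Npr2 Stx16 (0.94), Dctn1 (0.94) and Ccar2 (0.94), and for Corin Top2b (0.96), Uba6 (0.96) and Itgav (0.95). For Myh7 they were Myrf (0.94), Cep290 (0.88) and Hlf (0.86), and for Acta1 Psmb5 (0.82), Cdk5rap1 (0.82) and Mpp7 (0.81). The closest genes of Ankrd1 were Saal1 (0.80), Met (0.76) and Adgra3 (0.75), and those of Rcan1 were Ptges3 (0.81), Uck2 (0.81) and Kctd10 (0.78). No other member was among these, and all the values share the 14 libraries with their depth, age and length slope.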

How the data were processed

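The data were raw gene counts of 14 mouse hearts, deposited by the authors as a single table of 55487 Ensembl identifiers, with every column assigned to a sample (0 columns were left out). Per the labels' protocols the libraries came from a stranded total RNA kit with ribosomal RNA removal. The submitters' processing notes name cutadapt 1.16, STAR 2.7.3a, featureCounts 1.6.3, DESeq2 1.26.0 and GRCm38; neither the annotation release nor the strand setting of counting was given in the sources used, so reads of overlapping antisense genes could not be told apart. Symbols, exon lengths and coordinates came from GENCODE M21, which held 55227 of the identifiers, and promoters from RefSeq tables for GRCm38.p6.

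Counts were filtered with filterByExpr (minimum count 10, minimum total 15), scaled by TMM and fitted with edgeR 4.0.16 (robust quasi-likelihood, R 4.3.3) with 1 mean for each group. P-values were adjusted by Benjamini-Hochberg across the 15528 genes that were fitted; the threshold was 0.05 and intervals are at 95% confidence. CPM and RPKM were computed from the counts; correlations used log2 CPM with a prior count of 2. DESeq2 1.42.0, limma voom (limma 3.58.1), other scalings, filters and covariates were alternatives. Scripts were tested on simulated counts. Counting error, which excludes PCR duplication, was largest for genes with few reads: Nppa had as few as 20 reads and Npr1 as few as 112.

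All 10 genes are named in every comparison. Other list genes are named where they passed or as partners of the 10. The 10 genes and the lists were chosen with earlier results of these data known. No 2 libraries agreed within sampling noise (lowest chi-square per degree of freedom 19.8 over 91 pairs).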

Additional observations from a re-analysis of the deposited data

How the results depend on the processing

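Between genotypes, and for the difference of the knockout effects, 0 of the 10 genes passed in every setting run and without any 1 library. Between ages in knockout, 0 passed with all 14 hearts, against 3 by DESeq2 (Nppa, Npr3 and Acta1), 2 in a fit of only the groups compared (Nppa and Acta1), 1 with the atrial score as a covariate (Nppa), 2 at an adjusted p threshold of 0.1 (Npr3 and Acta1), 6 in the 9 hearts with Myl7 below 1 CPM, and 0 to 2 without 1 library (1 without wild-type replicate 1 of 2 months and 2 without knockout replicate 1 of 15 months). Of all genes in knockout, 1622 of 15502 passed by DESeq2 and 134 of 14757 with only the groups compared. With the atrial score 144 of 15528 passed, and at the threshold of 0.1 it was 1616 of 15528. The 6 in the 9 hearts with Myl7 below 1 CPM stand beside 4431 of 16588 genes. Without wild-type replicate 1 of 2 months 580 of 16034 genes passed, and without knockout replicate 1 of 15 months 3523 of 15617. In wild type 0 of the 10 genes passed, beside 161 of all genes. By DESeq2 it was 1, beside 1100 of 15502 genes, and without 1 library it was 0 to 1. For the 9 hearts with Myl7 below 1 CPM no count of the 10 genes is given in wild type or for the mean of genotypes. Only 1 wild-type heart of 15 months remains in that fit. For the mean of both genotypes 7 passed, beside 3712 of all genes. Without a filter it was 1, beside 2783 of 30180 genes. With the replicate block it was 3 (1365 genes), with the atrial score 4 (2493 genes) and with the length slope 0 (214 genes). Without the 2-month hearts with Ciart above 5 CPM, a setting chosen after seeing the data, it was 1 (869 of 15839 genes). Without 1 library it was 1 to 7. It was 1 without knockout replicate 1 of 2 months (1531 of 16174 genes). It was 2 without knockout replicate 3 or wild-type replicates 2 or 3 of 2 months or knockout replicate 3 of 15 months. It was 3 without knockout replicate 2 and 4 without wild-type replicates 1 or 3, all of 15 months. The cause was not tested. The labels do not pair the hearts and the data gave no common pairing, with correlations of same-numbered hearts between −0.44 and 0.32. Knockout replicate 3 of 2 months correlated at 0.31 with wild-type replicate 3 and at most −0.12 with the other wild-type hearts of that age. These are the 2 hearts of 2 months with high Ciart. The replicate block left the counts within a genotype and between genotypes at 0. Over all genes the count between ages in knockout was 349, and 49 to 3523 without 1 library (3523 without knockout replicate 1 of 15 months) and 39 to 4431 in other settings; in wild type it was 161, 38 to 796 and 43 to 1543; for the mean of genotypes it was 3712, 1531 to 5589 and 214 to 5524. Between genotypes it was 1, and up to 7.

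Signs turned as follows, none of them past the threshold. By limma voom they were Npr2 −0.0031 at 15 months, Nppb 0.045 at 2 months and Nppa 0.071 for the difference of knockout effects, and with the replicate block Npr2 −0.0041 at 15 months. With the atrial score they were Npr3 0.0099 at 15 months, Nppa 0.53 at 2 months, and Nppa 0.23 and Ankrd1 0.053 for the mean of ages. With the length slope they were Npr2 −0.088 between genotypes at 15 months, Corin −0.29 and Npr2 −0.12 between ages in knockout, Corin −0.31 and Npr1 −0.12 in wild type, and Corin −0.30 and Npr1 −0.031 for the mean of genotypes. In the hearts with Myl7 below 1 CPM they were Nppa 3.96, Nppb 2.10, Myh7 −1.07, Acta1 0.13 and Rcan1 0.21 between genotypes at 15 months, Nppa 0.30, Npr1 0.16 and Npr3 0.077 at 2 months, Nppa 2.13, Nppb 0.68, Npr3 0.034 and Ankrd1 0.094 for the mean of ages, and Nppa 3.66, Nppb 2.84, Npr1 −0.13, Npr3 −0.085 and Acta1 0.78 for the difference. Without the 2-month hearts with Ciart above 5 CPM they were Nppb 0.27, Myh7 −0.13 and Acta1 0.21 between genotypes at 2 months, Rcan1 0.026 between ages in wild type, and Myh7 0.33 and Rcan1 −0.11 for the difference. Without 1 library the ranges that crossed 0 between genotypes at 15 months were −2.07 to 0.056 for Nppa, −0.45 to 0.047 for Npr3, −0.077 to 0.098 for Npr2, −0.061 to 0.95 for Myh7 and −0.24 to 0.029 for Rcan1. At 2 months they were −0.89 to 0.30 for Nppa, −0.75 to 0.26 for Nppb, −0.19 to 0.16 for Npr1, −0.64 to 0.072 for Npr3 and −0.74 to 0.089 for Acta1, and for the mean of ages −0.12 to 0.013 for Ankrd1 and −0.023 to 0.25 for Npr1. Between ages they were −0.21 to 0.024 for Ankrd1 in knockout and −0.50 to 0.031 for Rcan1 in wild type, and for the difference −1.79 to 0.60 for Nppa, −1.16 to 0.43 for Myh7, −0.20 to 0.51 for Npr3, −0.10 to 0.42 for Rcan1 and −0.089 to 0.37 for Corin.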

Other observations

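Endothelial cells also carry natriuretic peptide receptors, and 6 endothelial markers were measured beside them. For the mean of both genotypes 4 of the 6 rose by the edgeR quasi-likelihood test, against 10.8% of all genes, and Egfl7 lay below 0. The summed level of all 6 was 309 to 1094 CPM in knockout and 325 to 487 CPM in wild type at 15 months, and 316 to 364 CPM in knockout and 301 to 346 CPM in wild type at 2 months. Knockout replicate 1 of 15 months, at 309 CPM, lay below all knockout hearts of 2 months. The part of these markers in the levels of Npr1, Npr2 and Npr3 was not tested. Between genotypes 0 of 6 passed at 15 months, with 2 at an unadjusted p below 0.05, against 3.97% of all genes. At 2 months 0 of 6 passed, with 0 at an unadjusted p below 0.05, against 3.18% of all genes.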
